A study of Homo sapiens with 3 samples.

Results

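The 41 genes described here encode enzymes of the urea cycle and of amino acid breakdown, and their mRNA was measured in Huh7, an established human hepatoma cell line. They were taken from a list of names of enzymes of the mature hepatocyte, by a rule that uses no measured value. Earlier results of these data were nevertheless known when the list was made. Some of the enzymes, such as ARG2 and MAT2A, are of wider distribution and do not mark the hepatocyte. All 41 were found among the 19740 genes named on the array, with 51 of its 34127 gene probes. The question is how far Huh7 cells carried these transcripts, and whether they differed after chlorogenic acid (CA), a polyphenol of plants that the study took up as a candidate agent to make tumor cells differentiate. The 3 groups were untreated Huh7 cells, Huh7 cells given CA at 50 μM, and Huh7 cells given CA at 100 μM, the last 2 for 24 h. The labels give no treatment for the untreated group, for which the methods name the solvent DMSO as the vehicle reference, and all cells grew in the same serum-containing medium.

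In the liver, amino acids are stripped of their amino groups by transaminases, the nitrogen passes through glutamate and ammonia into the urea cycle, and the carbon skeletons enter central metabolism. The urea cycle runs over mitochondrial and cytosolic steps and is complete mainly in hepatocytes. Many of these enzymes are lowered in hepatocellular carcinoma and in cultured hepatoma lines, and several of their genes respond to glucagon and glucocorticoids.

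Each group was measured on 1 one-colour Agilent array, with no replicate in any group. Thus no test was made, no p-value is given, and each difference below is one between 2 arrays, with no check of how far separate cultures vary. Signals are in arbitrary intensity units as given by the scanner software, and log2 ratios were taken after each array was scaled to its 75th percentile, which lay between 1059 and 1249 units. From 70.4% to 71.1% of the gene spots were well above background. The only available error is that between spots of one probe. Over probes printed 10 times, the log2 ratios at CA 50 μM varied between spots with a median SD of 0.065, and of 0.22 for probes under 50 units. This SD leaves out the culture, the RNA preparation and the hybridisation. On the CA 100 μM array 5.71% of the gene spots lay in areas where dim probes were bright as a block, against 0.139% and 0.0881% on the untreated and CA 50 μM arrays, and the 2 members whose spots lay there (TAT and TDO2) are marked below.

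Of the 11 hepatocyte and hepatoma markers, 9 were well above background on all 3 arrays, beside 73.6% of all genes. Among these 9 were ALB (albumin), AFP (alpha-fetoprotein) and TTR (transthyretin). The exceptions were TF (transferrin), whose spot had an outlier flag on 2 arrays, and HNF4A, the central hepatocyte transcription factor. The HNF4A probe read 9.37 units in untreated cells, 21.8 at CA 50 μM and 15.5 at CA 100 μM. It was well above background at CA 50 μM alone. These readings lie near the background, and whether the probe detects all HNF4A transcripts was not tested. Neither absence of HNF4A mRNA nor a change with CA is therefore read from them. Of the markers of other cell types, all 3 of blood, all 3 of endothelium and all 3 of bile duct cells were also well above background on all 3 arrays, together with 1 of 3 of stroma and 1 of 3 of muscle. Thus genes that mark cells other than hepatocytes also passed this limit. The part of these markers in the results was not tested.

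Most of the enzymes were detected. On all 3 arrays 37 of 41 members were well above background, beside 73.6% of all genes named on the array. Those that were not were OTC, GPT, GLS2 and GNMT. Under 100 units on every array were 7 members, namely these 4 with TAT, HPD and TDO2. Since the list also holds enzymes of wider distribution, such as ARG2 and MAT2A, the count detected does not measure how far hepatocyte character was kept. Within the functional groups, all 6 members of phenylalanine and tyrosine breakdown, all 5 of tryptophan and lysine breakdown, all 4 of branched-chain amino acid breakdown, all 5 of glycine, serine and glyoxylate metabolism and all 3 of proline and histidine breakdown passed on every array. The counts were 6 of 7 for the urea cycle, 4 of 6 for transamination and ammonia, and 4 of 5 for the methionine cycle. When the spots in disturbed areas were left out, 35 members remained above background on all 3 arrays.

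**Figure D1:**
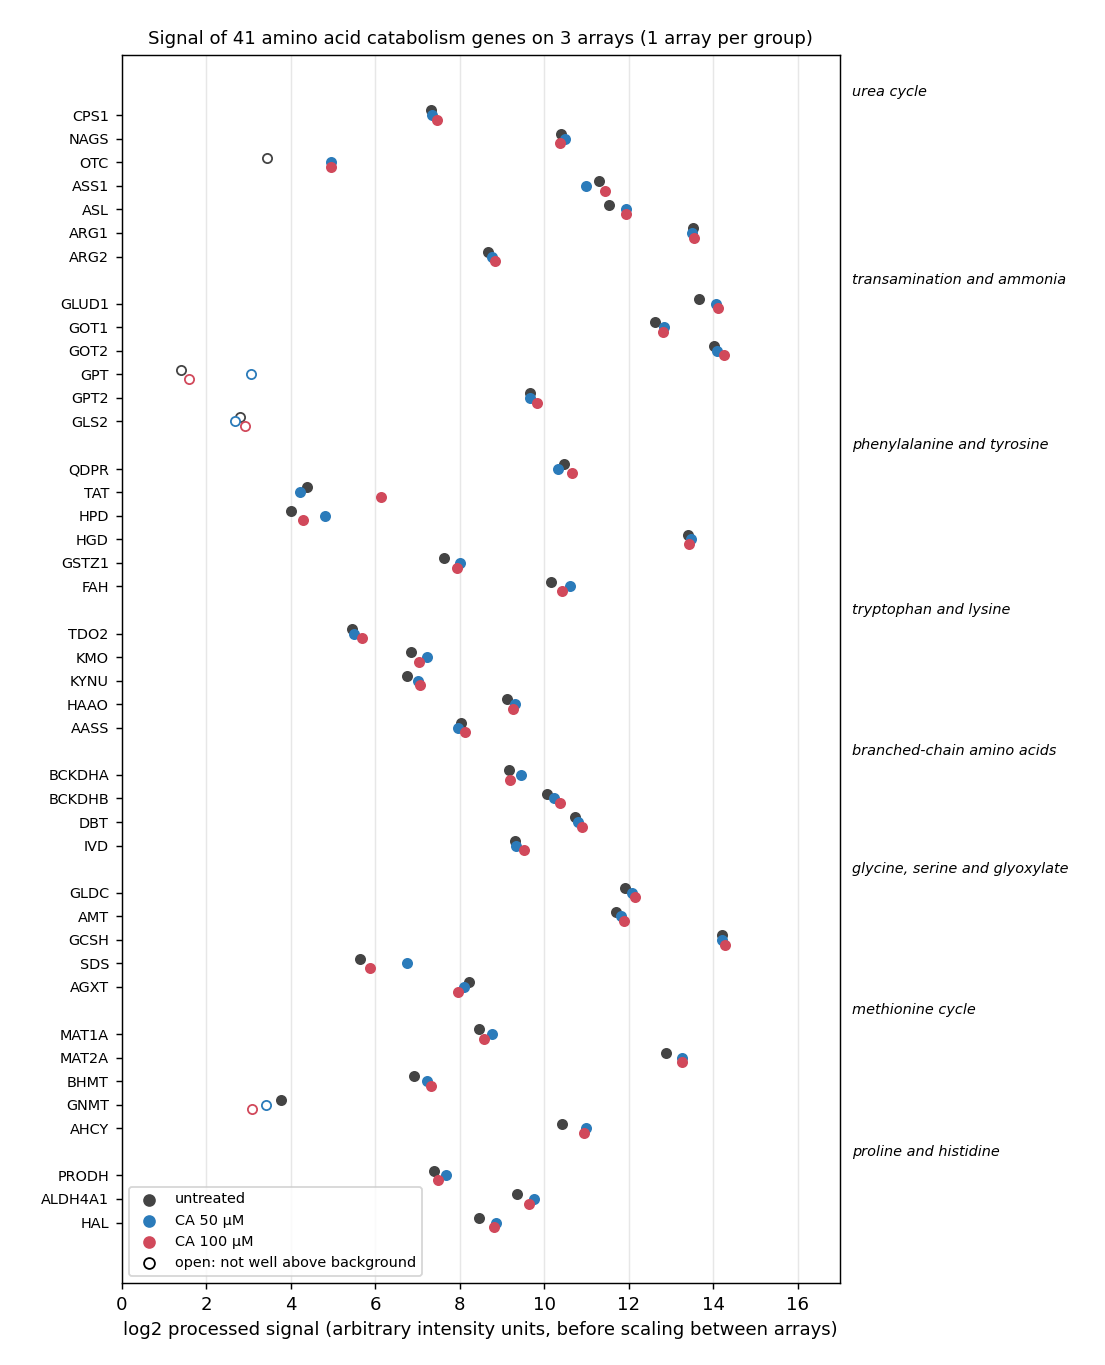
Signal of each of the 41 genes (vertical axis, grouped by function) as log2 of the processed signal in intensity units before scaling (horizontal axis), with 1 point per array for untreated, CA 50 μM and CA 100 μM. Filled points are well above background and open points are not. The 3 points of most genes lie close together, while those of TAT, SDS, HPD, OTC and GPT spread apart, the last with all 3 points not well above background. Signals of different genes are not compared, since each probe has its own response.

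Few of the members differed between the groups by 1.5-fold or more. At CA 50 μM the median log2 ratio to untreated over the 37 members compared was -0.03, beside -0.04 over all genes. The members reached from -0.49 (ASS1) to 0.91 (SDS), and 17 of them (45.9%) lay above 0, beside 43.7% of all genes. At least 1.5-fold higher were 2 members, HPD and SDS, whereas 4.15% of all genes were so. At least 1.5-fold lower were 0 members, beside 2.17% of all genes. None of the 37 was 2-fold apart in either direction, where 0.973% of all genes were. OTC had no usable untreated level, was therefore not among the 37, and is given below against a set level.

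At CA 100 μM the median log2 ratio to untreated over 37 members was -0.04, beside -0.03 over all genes. Of these 37, TAT alone was at least 1.5-fold higher, beside 1.65% of all genes, and 0 members were at least 1.5-fold lower, beside 1.53%. TAT was also past 2-fold, as were 0.649% of all genes in either direction. Since its spot lay in a disturbed area, the count was 0 of 35 members without such spots. The median size of the log2 ratio, regardless of sign, was 0.087 in the members and 0.12 in all genes at CA 100 μM, and 0.18 in both at CA 50 μM. Within 1.2-fold of untreated were 28 members at CA 50 μM and 34 at CA 100 μM. Both doses were set against the same untreated array, so that their ratios are not independent of each other.

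**Figure D2:**
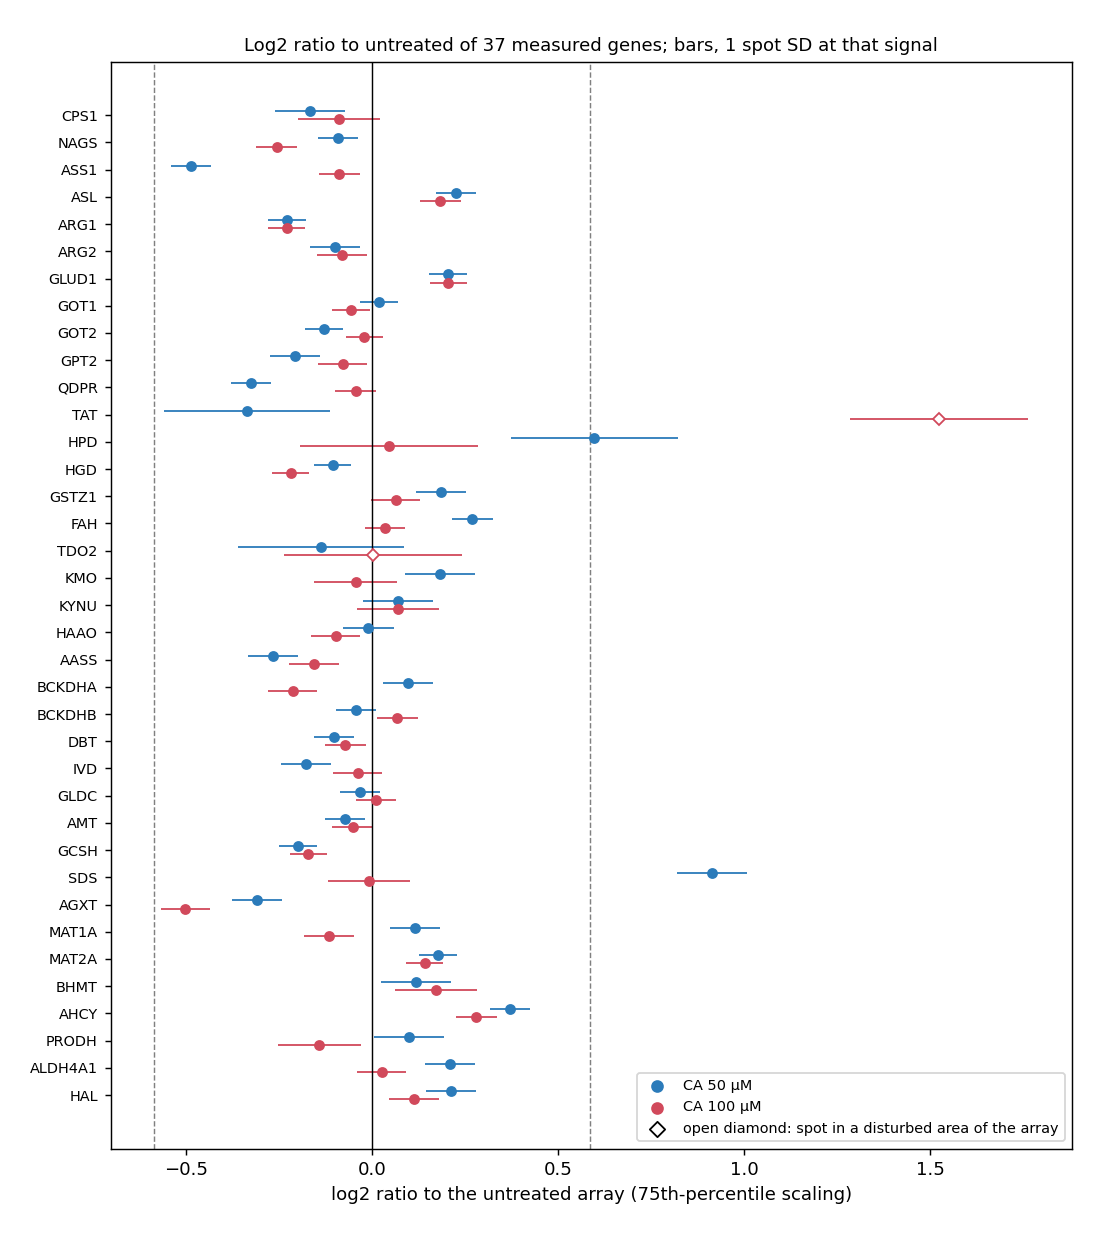
Log2 ratio to the untreated array (horizontal axis, 75th-percentile scaling) of the 37 genes well above background on all 3 arrays, with 1 point for CA 50 μM and 1 for CA 100 μM per gene. Bars are 1 SD between spots of replicated probes of similar signal, dashed lines mark 1.5-fold, and open diamonds are spots in a disturbed area. Most points lie near 0, and only SDS and HPD at CA 50 μM and TAT at CA 100 μM exceed 1.5-fold, the last with a spot in a disturbed area.

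Of the urea cycle, the transcripts of CPS1, ASS1, ASL, ARG1, ARG2 and NAGS were present in all groups, while OTC lay near the background. CPS1, the mitochondrial carbamoyl phosphate synthetase that admits ammonia to the cycle, gave 161 units in untreated cells, 163 at CA 50 μM and 178 at CA 100 μM. Its log2 ratios to untreated were -0.17 and -0.09, beside SDs of 0.094 and 0.11 between spots of probes of such signal, so that the former exceeded the spot SD and the latter did not. NAGS makes N-acetylglutamate, the activator that CPS1 requires. Its signals were 1344, 1440 and 1328 units in the same order, with log2 ratios of -0.09 and -0.26.

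OTC, the mitochondrial ornithine transcarbamylase that forms citrulline, read 10.8 units in untreated cells and was not well above background there. At CA 50 μM it read 30.9 units and at CA 100 μM 31.1 units, both well above background. Both treated arrays were thus above the untreated one. The untreated level was set to 12.2 units, the lowest signal of any probe well above background on that array. This is no strict upper limit, since HAO1, another gene of amino acid breakdown, read 12.5 units there without being well above background. Against this set level OTC was 2.22-fold higher in cells given CA 50 μM, and 2.16-fold higher in those given CA 100 μM. Probes under 50 units were those with the widest spread between spots, and the OTC probe was printed once on each array.

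ASS1, the cytosolic argininosuccinate synthetase that joins citrulline and aspartate, had 2 probes, which differed in direction at CA 50 μM. The brighter one read 2505 units in untreated cells, 2039 at CA 50 μM and 2781 at CA 100 μM, with log2 ratios of -0.49 and -0.09. The second one read 557, 787 and 764 units, with log2 ratios of 0.31 and 0.22. The file gives the same RefSeq transcript for both probes, and both differences at CA 50 μM exceeded the spot SD of 0.054 and 0.067 for probes of such signals. No direction is therefore given for ASS1. ASL, argininosuccinate lyase, which releases arginine and fumarate, read 2950, 3934 and 3950 units, with log2 ratios of 0.23 and 0.18. By the probe chosen for each gene, ASL was the single one of the 6 urea cycle members measured on all 3 arrays that lay above untreated at each dose.

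Arginase, which splits arginine into urea and ornithine, has a cytosolic liver form, ARG1, and a mitochondrial form of wider distribution, ARG2. The stretches just upstream of their starts are shown because the 2 forms, both detected here, differ in their promoters. Each line gives the 100 bases before the RefSeq transcription start on build GRCh38.p14, written 5′ to 3′ on the strand of the gene, with the motifs searched on both strands in capitals. The TATA box was searched as TATAAA. The CCAAT box was searched by its own letters, which read ATTGG when it lies on the other strand. The GC box was searched as GGGCGG, which reads CCGCCC on the other strand. The cAMP response element was searched as TGACGTCA. ARG1 lies at chr6:131573126-131573225 on the plus strand and ARG2 at chr14:67619820-67619919 on the plus strand.
ARG1: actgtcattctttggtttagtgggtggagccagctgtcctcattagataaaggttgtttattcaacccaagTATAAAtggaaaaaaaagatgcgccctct
ARG2: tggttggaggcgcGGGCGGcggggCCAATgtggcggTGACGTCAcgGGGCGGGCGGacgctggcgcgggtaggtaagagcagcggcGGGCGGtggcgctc
ARG1 has a TATA box that begins 29 bases before its start, while ARG2 holds GC boxes, a CCAAT box and a cAMP response element. Over the full window of 300 bases, from 250 before to 50 after the start, the ratio of observed to expected CpG was 0.086 for ARG1 and 0.86 for ARG2. These matches describe the letters alone.

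ARG1 read 11821 units in untreated cells, 11505 at CA 50 μM and 11895 at CA 100 μM. After scaling, its log2 ratio came to -0.23 for either dose, and its second probe gave -0.35 and -0.24. Both probes of ARG1 were thus below untreated at both doses after scaling, by more than the spot SD of 0.051 for probes of such signal. That SD does not include the effect of the scaling. Under other processing the ARG1 ratio ranged from -0.29 to -0.08 at CA 50 μM and from -0.25 to -0.16 at CA 100 μM. ARG2 read 410, 437 and 458 units, with log2 ratios of -0.10 and -0.08. Its local background had a non-uniformity flag on both treated arrays.

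Among the enzymes that move amino groups, GLUD1, GOT1, GOT2 and GPT2 were well above background on all arrays, and GPT and GLS2 on none. GLUD1, the mitochondrial glutamate dehydrogenase that frees ammonia from glutamate, read 13057 units in untreated cells, 17160 at CA 50 μM and 17753 at CA 100 μM, with log2 ratios of 0.20 and 0.21. GOT1 and GOT2 are the cytosolic and mitochondrial aspartate aminotransferases. GOT1 read 6371, 7359 and 7224 units, with log2 ratios of 0.02 and -0.06. GOT2 read 16741, 17458 and 19469 units, with log2 ratios of -0.13 and -0.02. Neither aspartate aminotransferase reached 1.2-fold at either dose.

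The alanine aminotransferases were split in detection. GPT, the form measured in blood as a sign of liver damage, read 2.66, 8.41 and 3.01 units, and was not well above background in any group. GPT2, the mitochondrial form, read 819, 809 and 915 units, with log2 ratios of -0.21 and -0.08. GLS2, the liver-type glutaminase, read 7.01, 6.45 and 7.52 units and was likewise not well above background in any group. For GPT and GLS2 no ratio is given, and the arrays set only an upper bound on their level. GLUD1, ASS1 and GCSH have near-identical copies or pseudogenes elsewhere in the genome, and whether their probes tell these apart was not tested.

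In the breakdown of phenylalanine and tyrosine, the largest ratios came from 2 dim probes. TAT, the tyrosine aminotransferase that opens the pathway and a classic glucocorticoid-induced gene of hepatocytes, read 20.8 units in untreated cells, 18.8 at CA 50 μM and 70.6 at CA 100 μM. Thus the CA 100 μM array stood apart from the other two. The log2 ratios to untreated were -0.34 and 1.52, and the higher dose exceeded the lower one by 1.86 on the log2 scale. The CA 100 μM spot lay in a disturbed area, and the part of that area in the value was not tested. HPD, the next enzyme, which forms homogentisate, read 16.2 units in untreated cells, 28.0 at CA 50 μM and 19.8 at CA 100 μM. It was high at CA 50 μM alone, with a log2 ratio of 0.60 there and 0.05 at CA 100 μM, beside a spot SD of 0.22 for probes under 50 units.

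The other members of this group stayed under 1.5-fold at both doses. HGD, which opens the ring of homogentisate, read 10837, 11483 and 10986 units, with log2 ratios of -0.11 and -0.22. FAH, the last enzyme of the pathway, which splits fumarylacetoacetate, read 1147, 1577 and 1386 units, with log2 ratios of 0.27 and 0.04. FAH thus stood above untreated mainly at CA 50 μM. GSTZ1, the isomerase before it, read 199, 258 and 245 units, with log2 ratios of 0.18 and 0.06. QDPR, which recycles the tetrahydrobiopterin used to hydroxylate phenylalanine, read 1415, 1290 and 1619 units, with log2 ratios of -0.32 and -0.04. Across these members the ratios pointed both ways at CA 50 μM, with 3 of 6 above 0.

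The tryptophan and lysine enzymes lay close to untreated, with medians over the 5 members of -0.0095 for the lower and -0.04 for the higher dose. TDO2, the hepatic tryptophan dioxygenase that starts the kynurenine pathway, read 43.9, 45.5 and 51.9 units, with log2 ratios of -0.14 and 0.0037, the latter with a spot in a disturbed area. KMO, the kynurenine hydroxylase, read 116, 150 and 133 units, with log2 ratios of 0.18 and -0.04. Its dimmer probe gave -0.16 and -0.34, so that the probes of KMO differed in sign at CA 50 μM, each by less than 1.2-fold. KYNU, the kynureninase, read 109, 130 and 134 units, with a log2 ratio of 0.07 at each dose. HAAO, which makes the precursor of quinolinate, read 562, 636 and 619 units, with log2 ratios of -0.0095 and -0.10, whereas its dimmer probe gave 0.51 and 0.24. AASS, the first enzyme of lysine breakdown in mitochondria, read 264, 251 and 280 units, with log2 ratios of -0.27 and -0.16. It was below untreated at each dose once the arrays were scaled.

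The 4 members that degrade leucine, isoleucine and valine were within 1.2-fold of untreated at both doses. BCKDHA and BCKDHB form the decarboxylase of the branched-chain keto acid dehydrogenase, and DBT is its transacylase core. BCKDHA read 576, 702 and 587 units, with log2 ratios of 0.10 and -0.21. BCKDHB read 1082, 1197 and 1338 units, with log2 ratios of -0.04 and 0.07, and its other 2 probes gave 0.12 and 0.10 at CA 50 μM. DBT read 1691, 1796 and 1898 units, with log2 ratios of -0.10 and -0.07. The 3 subunit genes of this complex therefore showed no common direction. IVD, the dehydrogenase of the leucine branch, read 641, 646 and 736 units, with log2 ratios of -0.18 and -0.04.

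Glycine is cleaved in mitochondria by a complex whose members GLDC, AMT and GCSH were all bright. GLDC, the decarboxylase, had a probe printed 10 times and so the best measured value of the set. It read 3859 units in untreated cells, 4304 at CA 50 μM and 4585 at CA 100 μM, with log2 ratios of -0.03 (spot SD 0.042) and 0.01 (spot SD 0.047). Both ratios were within the spread of its own spots. AMT, the aminomethyltransferase, read 3348, 3632 and 3811 units, with log2 ratios of -0.07 and -0.05, whereas its dimmer probe gave 0.04 and 0.06. GCSH, the lipoyl-carrying subunit, read 19033, 18901 and 19940 units, with log2 ratios of -0.20 and -0.17.

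SDS, the serine dehydratase that turns serine into pyruvate in gluconeogenic liver, was the furthest from untreated at CA 50 μM of the 37 members with a ratio. It read 50.2 units in untreated cells, 108 at CA 50 μM and 58.9 at CA 100 μM. Only the CA 50 μM array was high. The log2 ratios to untreated were 0.91 and -0.0069, and the higher dose lay 0.92 below the lower one, that is a log2 ratio of -0.92. Probes of 50 to 200 units had an SD between spots of 0.094. Under other processing the ratio at CA 50 μM ranged from 0.29 to 0.91. The low end came with a background correction (normexp) that adds an offset of 50 units and so shrinks the ratios of dim probes. The promoter of SDS is shown because its ratio at CA 50 μM was the largest among those 37, and lies at chr12:113403888-113403987 on the minus strand, with capitals as above.
SDS: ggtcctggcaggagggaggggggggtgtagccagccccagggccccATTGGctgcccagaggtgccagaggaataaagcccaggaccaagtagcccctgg
In this stretch the reverse of the CCAAT box is the single motif found, and the CpG ratio over the full window was 0.11.

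AGXT, the peroxisomal alanine-glyoxylate aminotransferase that keeps glyoxylate from becoming oxalate, read 299 units in untreated cells, 275 at CA 50 μM and 249 at CA 100 μM. Of the 3 arrays the untreated one was the highest and that of CA 100 μM the lowest. The log2 ratios were -0.31 and -0.50, with a spot SD of 0.067 and 0.066 for probes of such signal. At CA 100 μM it was the lowest of the 37 members, and its ratio stayed between -0.54 and -0.38 under other processing, short of the 1.5-fold limit of 0.58 in size.

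In the methionine cycle, the S-adenosylmethionine synthetases again come as a liver form, MAT1A, and a form of dividing and extrahepatic cells, MAT2A, and hepatoma cells often switch from the former to the latter. Their upstream stretches are shown for the contrast between a gene of differentiated liver and its widely used paralog. MAT1A lies at chr10:80289659-80289758 on the minus strand and MAT2A at chr2:85539068-85539167 on the plus strand.
MAT1A: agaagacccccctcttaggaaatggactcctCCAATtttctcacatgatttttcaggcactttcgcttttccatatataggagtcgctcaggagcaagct
MAT2A: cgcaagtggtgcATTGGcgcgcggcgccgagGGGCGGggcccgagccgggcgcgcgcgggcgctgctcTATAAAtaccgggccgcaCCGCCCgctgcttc
The CpG ratio over the full window was 0.17 for MAT1A and 1.14 for MAT2A. MAT2A carries a TATA box that begins 32 bases before its start, beside GC boxes and a CCAAT box, and MAT1A a CCAAT box alone.

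Both synthetase transcripts were detected in all groups. MAT1A read 352 units in untreated cells, 434 at CA 50 μM and 383 at CA 100 μM, with log2 ratios of 0.12 and -0.12. MAT2A read 7588, 9788 and 9869 units, with log2 ratios of 0.18 and 0.14, and its second probe gave 0.14 and 0.20. Both MAT2A probes were thus above untreated at both doses, while MAT1A lay on either side of it.

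AHCY, which hydrolyses S-adenosylhomocysteine, read 1385 units in untreated cells, 2040 at CA 50 μM and 1983 at CA 100 μM. Both treated arrays were above the untreated one, with log2 ratios of 0.37 and 0.28, beside a spot SD of 0.054 and 0.055. These ratios ranged from 0.32 to 0.39 and from 0.26 to 0.30 under other processing. BHMT, which remethylates homocysteine with betaine in liver, read 120, 149 and 160 units, with log2 ratios of 0.12 and 0.17. GNMT, the glycine N-methyltransferase that regulates the level of S-adenosylmethionine and is often lost in liver tumors, read 13.6 units in untreated cells, where it was just well above background. At CA 50 μM it read 10.6 and at CA 100 μM 8.55 units, both not well above background. The treated levels were set to 12.5 and 14.8 units, the lowest signals well above background on these arrays, which are no strict limits of detection. Against these, GNMT was 1.24-fold lower at CA 50 μM and 1.08-fold lower at CA 100 μM. With the signals this close to background, GNMT has no usable ratio. Over the other 4 members the medians for the lower and the higher dose were 0.15 and 0.16, against -0.04 and -0.03 for all genes.

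The enzymes of proline and histidine breakdown were slightly above untreated at CA 50 μM, with a median over the 3 members of 0.21, and close to it at CA 100 μM, with 0.03. PRODH, the proline dehydrogenase, read 167, 204 and 179 units, with log2 ratios of 0.10 and -0.14. Its second probe read 17.9 units and was well above background at CA 50 μM alone. ALDH4A1, the next enzyme, which yields glutamate, read 662, 873 and 795 units, with log2 ratios of 0.21 and 0.03. Its dimmer probe gave 0.35 and 0.10, the former past 1.2-fold. HAL, the histidine ammonia-lyase of liver and skin, read 351, 463 and 448 units, with log2 ratios of 0.21 and 0.11. By the brightest probe none of the 3 reached 1.2-fold at either dose.

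**Figure D3:**
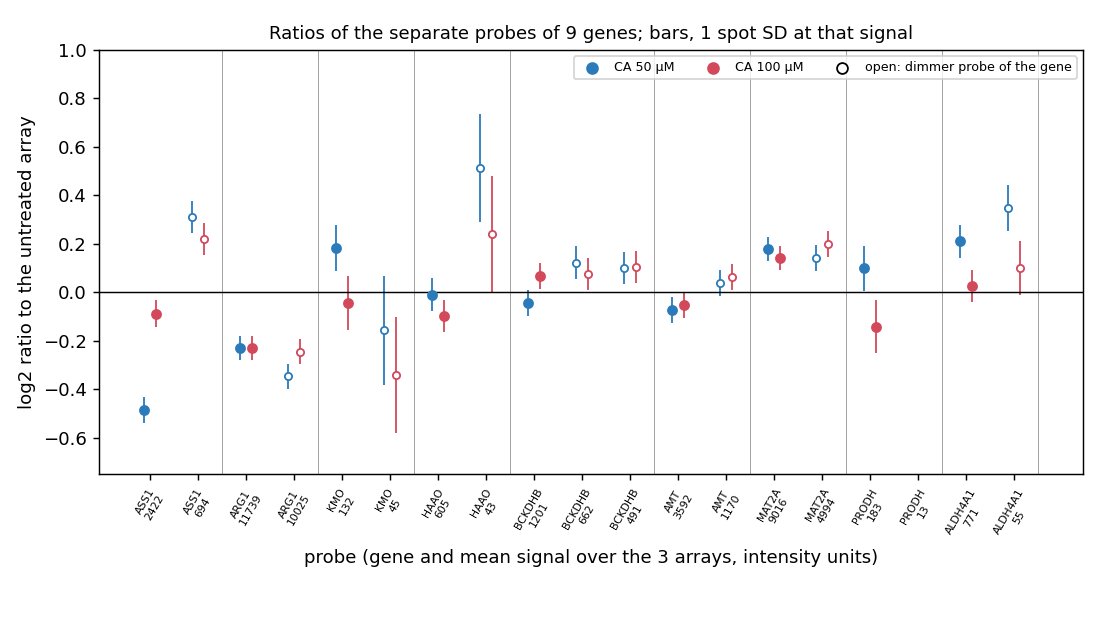
Log2 ratios to the untreated array of each probe of the 9 genes with more than 1 probe, for CA 50 μM and CA 100 μM (vertical axis), with bars of 1 spot SD and the mean signal of each probe in intensity units under its gene. Filled points are the probe with the highest mean signal and open points the dimmer ones, and the dimmer PRODH probe has no point because untreated cells gave it no signal well above background. The 2 ASS1 probes lie on opposite sides of 0, at -0.49 and 0.31 for CA 50 μM.

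The doses were also set against each other. Of the 38 members compared between CA 100 μM and CA 50 μM, the median log2 ratio was -0.02, beside 0.0022 over all genes. TAT exceeded 1.5-fold in favour of CA 100 μM, beside 1.4% of all genes, and SDS at least 1.5-fold lower, beside 1.54%. TAT alone was past 2-fold, beside 0.675% of all genes in either direction. OTC, which entered this comparison, differed by -0.04. Without spots in disturbed areas, SDS was the single member left of 36.

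Other genes of amino acid metabolism gave a similar picture. Of 73 further transporters, cofactor enzymes and catabolic enzymes, 69 were well above background on all 3 arrays, beside 73.6% of all genes. The others were SLC25A2, PRODH2, UROC1 and HAO1. Over these 69 the median log2 ratio was 0.02 at each dose. At CA 50 μM 2 of them were at least 1.5-fold higher and 0 lower, beside 4.15% and 2.17% of all genes. At CA 100 μM 0 were past this limit, beside 1.65% of all genes higher and 1.53% lower. AFMID, which releases kynurenine from its formyl form, read 106 units in untreated cells, 207 at CA 50 μM and 130 at CA 100 μM, with log2 ratios of 0.77 and 0.05. As with SDS and HPD, the CA 50 μM array alone was high. CHDH, the choline dehydrogenase that feeds betaine to BHMT, read 188, 386 and 297 units, with log2 ratios of 0.84 and 0.42.

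Of 19 regulators of hepatocyte amino acid enzymes, 17 were well above background on all 3 arrays, beside 73.6% of all genes. HNF4A and KLF15 were not. Over these 17 the median log2 ratios for the lower and the higher dose were -0.17 and -0.13. PPARGC1A, a coactivator of fasting metabolism, read 301 units in untreated cells, 222 at CA 50 μM and 251 at CA 100 μM, with log2 ratios of -0.63 and -0.50. GCGR, the glucagon receptor, read 55.6, 40.5 and 40.9 units, with log2 ratios of -0.65 and -0.68. Both were below untreated on each treated array. CEBPA, a factor of hepatocyte differentiation, read 9944, 15100 and 13842 units and was above untreated, with log2 ratios of 0.41 and 0.24. The medians of the 9 hepatocyte and hepatoma markers were -0.12 and -0.16.

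**Figure D4:**
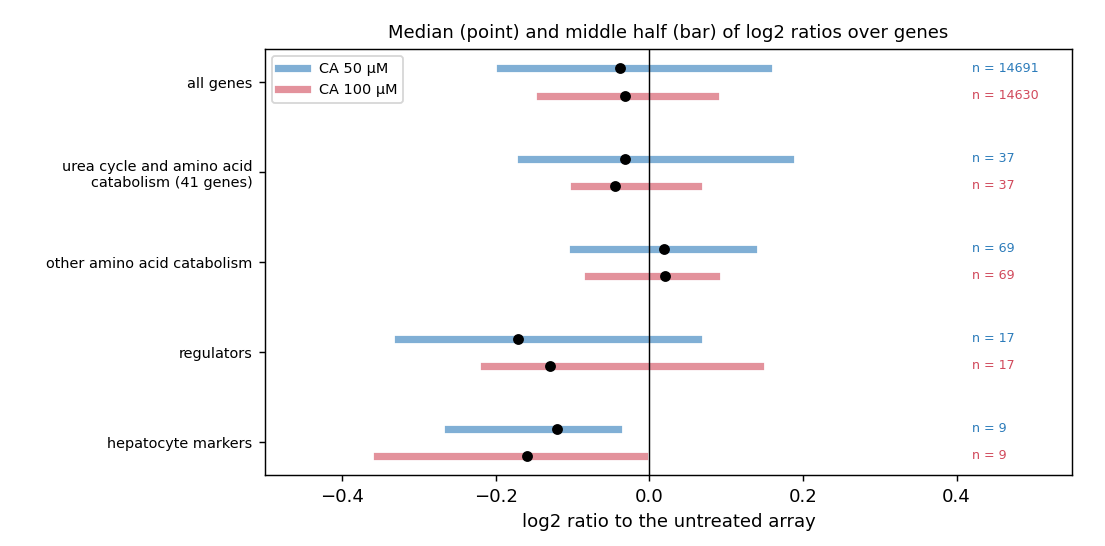
Median (point) and range from the 25th to the 75th percentile (bar) of log2 ratios to the untreated array over the genes of each list, for CA 50 μM and CA 100 μM. The 37 enzymes have medians of -0.03 and -0.04, next to -0.04 and -0.03 for all genes, and the regulators lie lower at -0.17 and -0.13.

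The promoters of the members were described as a set. The RefSeq table of GRCh38.p14 held 44 promoters for 36 of the 41 genes. Over windows of 300 bases and on both strands, the TATA box TATAAA was in 8 of 44 (18.2%), beside 11.5% of all promoters in the table. These 8 belonged to ARG1, OTC, TDO2, KYNU, KMO, HAL, BHMT and MAT2A. The count is of the letters TATAAA at any place in the window. Relative to the start, the match lay at -29 in ARG1, KMO and BHMT and at -32 in MAT2A. It lay further upstream in KYNU (-66), OTC (-192) and TDO2 (-216). Positions were taken on the strand of the gene, and in HAL the match lay on the other strand alone. The CCAAT box was in 20 (45.5%, beside 34.6%) and the GC box GGGCGG in 28 (63.6%, beside 45.0%). The cAMP response element TGACGTCA was in that of ARG2 alone (2.27%, beside 1.85%). A CpG ratio of at least 0.6 was found in 24 promoters (54.5%, beside 48.9%). A promoter was scored for holding a motif or not, so that overlapping copies, as in ARG2, counted once, and a match says nothing of binding.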

How the data were processed

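The authors amplified total RNA of the 3 groups, labelled it with the dye Cy3 and hybridised each group to 1 array, and the images were read with Agilent Feature Extraction 11.0.1.1. The deposited intensity values are background-subtracted processed signals, not scaled between arrays. The authors also deposited a table of log2 values by an unstated method, whose columns share 1 median and 75th percentile, and which was used as an alternative only.

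Spots with an outlier flag were left out (429 to 596 of 43118 per array), and log2 signals were scaled to the 75th percentile of each array. Probes were named through RefSeq accessions, for 25771 of 34127 probes (75.5%). A gene was represented by the probe with the highest mean signal. Ratios were formed where it was well above background on both arrays, and folds of at least 1.5 and 2 were counted without a test. For a probe above background on 1 side, the dim array was set to its lowest signal above background, or to the probe's own if higher. Full values were given for every member. An area was taken as disturbed where, in a window of 17 rows by 7 columns of spots, at least 5 spots and 25% of dim probes were at least 4-fold brighter on 1 array. The 11 alternatives covered normalization, background correction, filters, flags and choice of probe. The background correction by normexp used an offset of 50 units, which shrinks the ratios of dim probes. The scaling, the ratios and the 1.5-fold counts were tested on simulated arrays, with large changes planted in probes well above background. The levels set for dim probes, the choice of probe and the search for disturbed areas were not tested in this way. The members and gene lists were chosen with earlier results of these data known. Python 3.11.15, numpy 2.4.6, pandas 2.3.3, R 4.3.3 and limma 3.58.1 were used.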

Additional observations from a re-analysis of the deposited data

Results flagged for a closer look

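The ratios of TAT and SDS to untreated were of opposite sign at the 2 doses. TAT was lower at CA 50 μM and higher at CA 100 μM, where its spot lay in a disturbed area, and the doses differed by 1.86 on the log2 scale. SDS was higher at CA 50 μM and next to untreated at CA 100 μM, with a difference of -0.92 between the doses. Its ratio at CA 100 μM, -0.0069, was far within the spot SD of 0.11 and turned to 0.01 with cyclic loess, so that its sign there is not settled. With 1 array per group neither difference was tested.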

How the results depend on the processing

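The median log2 ratio of the members to untreated stayed near 0 under every alternative, from -0.08 (median centring) to 0.01 (mean over the probes of a gene) at CA 50 μM and from -0.06 to -0.0069 at CA 100 μM, and no ratio past 1.5-fold changed sign. Of the 2 members at least 1.5-fold apart at CA 50 μM, 1 (SDS) was left with cyclic loess, 1 with median centring and 1 with the deposited log2 table, 0 were left with normexp, and 4 were counted with no filter on dim probes (SDS, HPD, OTC and GPT). At CA 100 μM the count of 1 became 0 with normexp, 0 without disturbed areas, 3 with a filter on 1 array and 3 with no filter (TAT, OTC and GNMT in both). Between the doses the count of 2 became 0 with normexp, 1 without disturbed areas, and 3 with quantile normalization, with the deposited table (HPD added in both) or with no filter (GPT added). The share of all genes past 1.5-fold was not counted under these alternatives. The members added by the wider filters (OTC, GPT and GNMT) were near background and are therefore not read as a result about the list. Under every setting 29 of 37 members kept their sign at CA 50 μM and 27 of 37 at CA 100 μM. The count at CA 50 μM includes ASS1 and KMO, whose separate probes differed in sign there. The share of all genes that kept their sign was not counted. HPD ranged from 0.11 to 0.60 at CA 50 μM, and TAT from 0.34 to 1.55 at CA 100 μM. The low ends of both ranges came with normexp, whose offset of 50 units exceeds most of the signals of these 2 probes. Their shrunken ratios, and the counts of 0 with normexp, thus follow in part from the offset. No paired analysis was possible because each group had 1 array, and for the same reason no replicate could be left out. Dim probes set the limit: the values of TAT, HPD, OTC and GNMT, all under 50 units on at least 2 of the arrays, rest on single spots.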
